A study of Mus musculus with 5 samples.

Results

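Collagens are mostly secreted proteins of 3 wound chains, which may be alike or different, and each kind of chain is the product of its own gene. Fibrillar types such as I and III form the rope-like fibrils of connective tissue, and type IV builds the sheet under epithelia, vessels and the brain surface. The remaining types decorate fibrils, form networks of their own or span the cell membrane. In the brain, collagen is found mainly in the meninges and in the basement membranes of vessels. The members were the 40 mouse collagen chain genes whose RefSeq transcripts could be looked up by symbol among 20178 transcripts, and 39 of them had a transcript in the tables. Col12a1 was not analysed here. They fell into 11 fibrillar genes, 6 type IV (basement membrane) genes, 9 FACIT genes (fibril-associated collagens with interrupted triple helices), 4 transmembrane genes, 3 type VI genes, 3 short-chain network genes (types VIII and X), 2 multiplexins (types XV and XVIII), and 1 gene each for types VII and XXVIII.

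RNA-seq was done on 5 cultures of ICR mouse cells at passage 2, with 1 library per condition. Astrocytes came from the ventral midbrain (VM) or the cortex (Ctx) at postnatal day 5, which the labels call astrocyte progenitor cells, and neural progenitor cells (NPCs) came from the cortex of embryonic day 12 embryos. The VM cells gave 3 libraries. The first, called VM untransduced here, has no virus entry in its labels. The others are titled C and NF, read here as the mock-transduced control and as Nurr1 plus Foxa2 (N + F), nuclear receptor and forkhead transcription factors of midbrain dopamine cells. In the study these were delivered by lentiviruses with a CMV promoter, which is not specific to astrocytes, and the empty vector served as mock. The Ctx astrocytes and Ctx NPCs carry no virus entry either. All were primary cultures, and the labels do not give the number of animals pooled.

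The titles of the C and NF libraries and their treatment entries contradict each other, because the entry of titled C names the factor viruses and that of titled NF names the mock virus. Titles were followed. With the entries in their place, the sign of each NF against C ratio is the opposite, and the values against VM untransduced pass to the other condition. Nr4a2, which encodes Nurr1, had 53 reads in titled C, 183 in titled NF and 81 in VM untransduced, and Foxa2 had 15, 216 and 68 reads. Both were highest in titled NF among the VM libraries. How far the vector's rat Foxa2 is counted on mouse exons was not tested.

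Libraries also stood apart in cell type markers. The 10 astrocyte markers each had FPKM (counted reads scaled to transcript length and library total) above 1 in every library, with a summed level of 1837 to 2130 CPM (reads scaled to the library total) in the VM libraries, 4623 in Ctx astrocytes and 11367 in Ctx NPCs. Titled C carried the microglial list at 1264 CPM, with 12 of 13 genes above FPKM 1, against 259 to 345 CPM in the other VM libraries. The library labelled Ctx NPCs had Gfap, the astrocyte filament gene, at 2246 FPKM and Mbp, a myelin gene, at 1485 FPKM, and its oligodendrocyte list summed to 7488 CPM against 214 to 417 CPM elsewhere. Of the 6 neural progenitor markers, 5 were above FPKM 1 there, with Sox2 at 201 FPKM, and the library thus carried markers of cell types other than its label's. The 10 endothelial markers summed to 98.9 to 173 CPM in the VM libraries, where 4 or 5 of them were above FPKM 1, 39.3 in Ctx astrocytes and 9.10 in Ctx NPCs. Among them, Pecam1 lay between 0.118 and 0.693 FPKM and Cldn5 had at most 1 read in any library. Mural markers summed to 1462 CPM in VM untransduced, 812 in titled C, 1330 in titled NF, 927 in Ctx astrocytes and 487 in Ctx NPCs. Acta2 gave most of these reads in each library, 25478 in VM untransduced, where 7 of the 10 mural markers were above FPKM 1. Higd1b had 0 reads in every library, Kcnj8 at most 24 and Abcc9 at most 35. Fibroblast markers, a list that holds no collagen gene, summed to 1367 to 1466 CPM in the VM libraries, 718 in Ctx astrocytes and 161 in Ctx NPCs. The largest part of the VM sums came from Fbln2, with 14319 reads in VM untransduced, 16922 in titled C and 14678 in titled NF. Single markers went both ways behind these near-equal sums. In the same order, Ogn had 37.5, 2.16 and 46.2 FPKM and Dcn had 38.4, 60.4 and 31.5 FPKM. The part of these cell types in the collagen values was not tested, and in bulk RNA fewer cells of a type cannot be told apart from less RNA per cell. Each library held between 20010818 and 22554835 counted reads, so that 3 reads correspond to 0.133 to 0.15 CPM.

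Collagen reads made up 0.789% of all counted reads in VM untransduced (95% Wilson interval 0.785 to 0.793), 0.487% in titled C (0.484 to 0.490), 0.871% in titled NF (0.867 to 0.875), 0.455% in Ctx astrocytes (0.452 to 0.458) and 0.0867% in Ctx NPCs (0.0854 to 0.0880). Intervals on shares and ratios here are for counting error only and say nothing of the spread between cultures. They treat each read as independent, and because PCR copies are not independent molecules, they may be too narrow even for that. VM untransduced and titled NF were the libraries rich in collagen reads, titled C and Ctx astrocytes lay lower and close together, and Ctx NPCs were lowest. Fibrillar genes held 47.9% of the collagen reads in VM untransduced, 46.1% in titled C, 46.0% in titled NF, 39.0% in Ctx astrocytes and 38.7% in Ctx NPCs. The type IV share of collagen reads was 24.1, 30.2, 25.8, 32.8 and 24.4% in the same order. FACIT genes gave 29.7% of the collagen reads in Ctx NPCs and between 1.31 and 2.67% in the other libraries, which set the makeup of the NPC collagen reads apart.

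**Figure D1:**
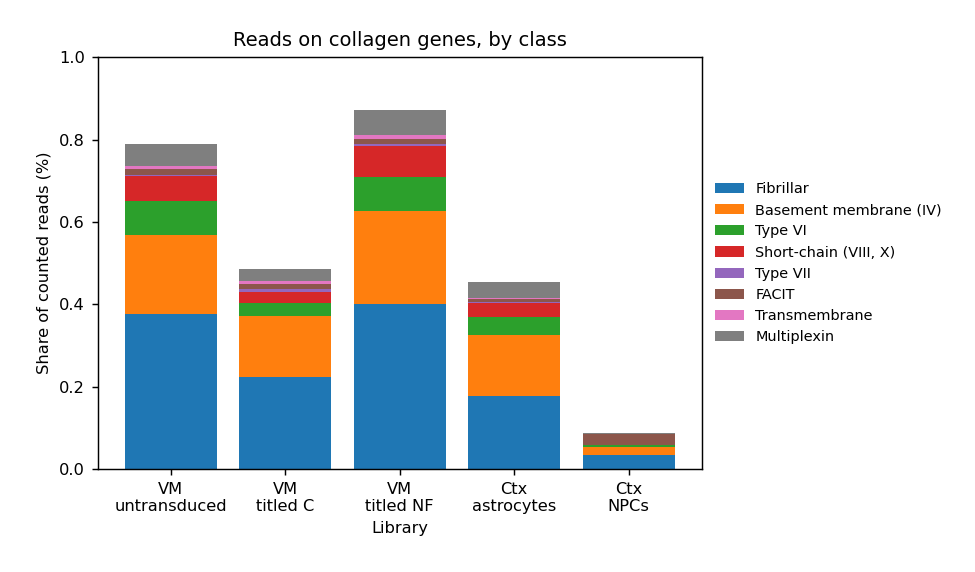
Share of counted reads on collagen genes in each library (y axis, percent, starting at 0), stacked by class; each bar is 1 library, and type XXVIII (at most 18 reads) is not drawn. The bars reach 0.789, 0.487, 0.871, 0.455 and 0.0867%, and the FACIT band is the widest after fibrillar in Ctx NPCs only.

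Of the 39 measured members, 29 had FPKM above 1 in at least 1 library and 16 in all 5. The 10 that stayed at or under FPKM 1 were Col4a3 and Col4a4, Col24a1, Col10a1, Col14a1, Col19a1, Col13a1, Col17a1, Col25a1 and Col28a1. A member without a read was found in 3 libraries, namely Col4a3 in titled C, Col25a1 in Ctx astrocytes and Col10a1 in Ctx NPCs, which allows levels of up to 0.133, 0.14 and 0.15 CPM. Levels were concentrated in few genes. The 5 highest collagen genes gave 53.7% of the summed collagen FPKM in VM untransduced, 50.6% in titled C, 54.1% in titled NF, 48.2% in Ctx astrocytes and 59.1% in Ctx NPCs. Col1a1 led in each VM library, Col4a1 led in Ctx astrocytes, and Col9a3 led in Ctx NPCs. Among the 29, the highest library was titled NF for 15 genes and Ctx NPCs for 6, and the lowest was Ctx NPCs for 20.

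**Figure D2:**
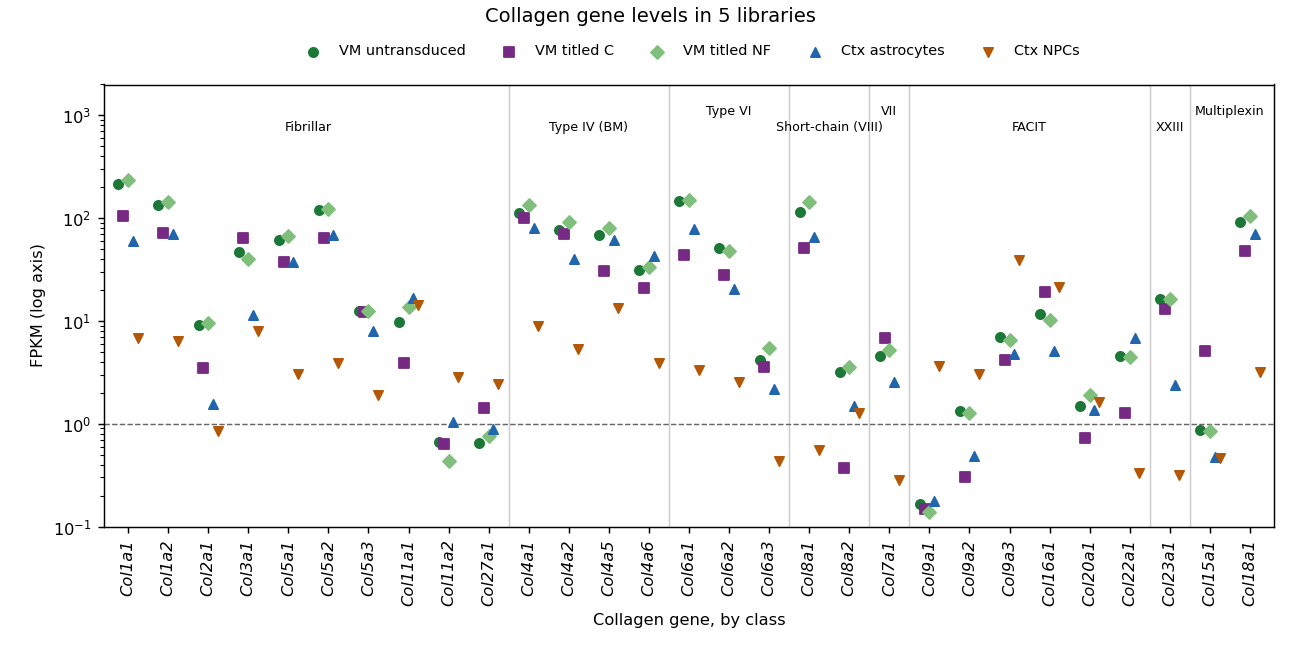
FPKM of the 29 collagen genes above FPKM 1 in at least 1 library (y axis, log scale; dashed line at FPKM 1), ordered by class on the x axis; each symbol is 1 library. VM untransduced and titled NF symbols lie nearly on each other, and Ctx NPC symbols lie lowest for 20 of the 29 genes and above the others for type IX genes.

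Among fibrillar genes, Col1a1 and Col1a2 encode the chains of type I collagen, the main fibril of skin, bone and meninges. Col1a1 stood at 213 FPKM in VM untransduced, 104 in titled C, 233 in titled NF, 59.9 in Ctx astrocytes and 6.89 in Ctx NPCs. Col1a2 stood at 135, 71.6, 144, 69.6 and 6.37 FPKM in the same order of libraries, which is used for all 5-value lists from here on. Type I RNA was thus highest in titled NF and VM untransduced and lowest in Ctx NPCs, where Col1a1 and Col1a2 lay at percentiles 58.8 and 57.8 of all transcripts, against 93.5 and 94.6 in Ctx astrocytes. Col3a1, the type III chain that shares fibrils with type I in soft tissue, had 46.4, 64.5, 40.1, 11.5 and 8.06 FPKM. Unlike type I, it was highest in titled C. Col5a1 and Col5a2, whose type V product limits fibril width, had 61.6, 37.1, 67.7, 37.6 and 3.05 FPKM and 119, 64.1, 122, 69.4 and 3.91 FPKM. Like type I, the type V pair was highest in titled NF and lowest in Ctx NPCs, with titled C slightly below Ctx astrocytes. Col5a3 lay lower at 12.4, 12.1, 12.6, 7.97 and 1.91 FPKM.

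Cartilage-type fibrillar genes were measured at lower levels and in other orders. Col2a1, the type II chain of cartilage and vitreous, had 9.11, 3.51, 9.45, 1.56 and 0.848 FPKM. Col11a1, whose product nucleates type II fibrils, had 9.78, 3.88, 13.6, 16.9 and 14.2 FPKM, so that its highest levels were in the cortical cultures. Col11a2 had 0.659, 0.636, 0.430, 1.04 and 2.85 FPKM, and Col27a1, another cartilage fibril gene, had 0.647, 1.42, 0.760, 0.879 and 2.42 FPKM. Both were highest in Ctx NPCs.

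Promoter windows of a type I and the type III gene are shown because their levels took opposite directions in titled C. RefSeq windows on GRCm38.p6 run from 250 bases before to 50 after an annotated start, and 35 windows of 32 members were matched. Capitals mark any CCAAT box, any TATAAA box and any GGGCGG box on either strand, a match on the minus strand being printed as its complement read backwards, and these motifs may overlap at their ends. Col1a2 lies at chr6:4505368-4505667 and Col3a1 at chr1:45311288-45311587, both on the plus strand.
Col1a2: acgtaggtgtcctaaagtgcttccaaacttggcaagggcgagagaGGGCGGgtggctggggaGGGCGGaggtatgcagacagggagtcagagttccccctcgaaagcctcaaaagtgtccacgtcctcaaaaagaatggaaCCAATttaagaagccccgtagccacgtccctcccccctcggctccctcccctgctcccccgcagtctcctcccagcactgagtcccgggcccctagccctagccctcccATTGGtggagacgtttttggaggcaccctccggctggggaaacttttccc
Col3a1: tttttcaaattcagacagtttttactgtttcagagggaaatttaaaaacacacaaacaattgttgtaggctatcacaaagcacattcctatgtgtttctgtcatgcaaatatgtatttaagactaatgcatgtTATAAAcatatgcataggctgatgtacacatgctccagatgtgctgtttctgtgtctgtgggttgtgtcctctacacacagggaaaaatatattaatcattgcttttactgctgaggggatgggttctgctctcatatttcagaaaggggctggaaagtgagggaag
The Col1a2 window holds 2 matches each of the CCAAT box and the GGGCGG box, and that of Col3a1 holds 1 match of the TATAAA box. Over all 32851 windows, 37.4% hold the CCAAT box, 13.6% hold the TATAAA box and 35.7% hold the GGGCGG box, and of the 35 collagen windows 12, 5 and 20 do. A match describes letters only and does not mark a site in use.

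Type IV genes lie head to head in pairs on the genome. Col4a1 (chr8:11198423-11312889, minus strand) and Col4a2 (chr8:11312805-11449287, plus strand) encode the chains of nearly every basement membrane, and their annotated spans overlap by 85 bases. Use of strand in the counting is not given in the sources used here, so reads in that stretch cannot be assigned with certainty. Col4a1 measured 112, 101, 135, 80.8 and 8.91 FPKM. Col4a2 measured 76.3, 70.6, 92.7, 40.3 and 5.33 FPKM. Of the type IV genes above FPKM 1, this pair had the smallest log2 ratios of titled C to VM untransduced, -0.16 and -0.11. Their windows are shown because they overlap. That of Col4a1 is chr8:11312777-11313076 on the minus strand and that of Col4a2 is chr8:11312555-11312854 on the plus strand, the starts lie 21 bases apart, and 78 bases are common to both, read on opposite strands.
Col4a1: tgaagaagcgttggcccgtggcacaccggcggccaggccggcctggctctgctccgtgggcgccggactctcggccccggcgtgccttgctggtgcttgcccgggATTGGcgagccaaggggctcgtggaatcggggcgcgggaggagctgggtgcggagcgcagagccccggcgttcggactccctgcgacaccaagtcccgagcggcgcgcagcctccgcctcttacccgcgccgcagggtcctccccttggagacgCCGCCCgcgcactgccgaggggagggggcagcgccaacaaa
Col4a2: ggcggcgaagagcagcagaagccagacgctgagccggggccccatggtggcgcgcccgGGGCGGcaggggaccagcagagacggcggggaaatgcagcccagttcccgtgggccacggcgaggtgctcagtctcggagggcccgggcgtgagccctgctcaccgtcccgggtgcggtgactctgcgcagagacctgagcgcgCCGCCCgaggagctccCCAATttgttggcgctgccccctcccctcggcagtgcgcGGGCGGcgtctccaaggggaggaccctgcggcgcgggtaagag
Each of these windows holds the CCAAT box once, and the GGGCGG box is found once in the first and 3 times in the second.

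On the X chromosome, Col4a5 and Col4a6 encode chains of other basement membranes, and 1274 bases separate their annotated spans. Col4a5 was at 68.6, 30.7, 79.8, 61.0 and 13.5 FPKM and Col4a6 at 31.0, 20.7, 33.8, 43.2 and 3.90 FPKM. Col4a6 was highest in Ctx astrocytes, unlike the other type IV genes above FPKM 1. The kidney-type pair on chromosome 1, Col4a3 and Col4a4, stayed under 0.3 FPKM everywhere, with at most 49 and 27 reads.

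Ratios between partner chains showed how far such pairs moved together. Within a library Col4a1 over Col4a2 was 1.47 (95% exact interval 1.44 to 1.51) in VM untransduced, 1.42 (1.39 to 1.46) in titled C and 1.46 (1.42 to 1.49) in titled NF. It was 2.00 (1.94 to 2.07) in Ctx astrocytes and 1.67 (1.52 to 1.84) in Ctx NPCs. The intervals of the 3 VM values overlapped, and that of Ctx astrocytes lay above all others. Col1a1 over Col1a2 was 1.57, 1.45 and 1.62 in the VM libraries, 0.861 (0.834 to 0.888) in Ctx astrocytes and 1.08 (0.975 to 1.20) in Ctx NPCs. In Ctx astrocytes alone the second type I chain was the more abundant RNA over the whole counting interval. Col5a1 over Col5a2 stayed between 0.516 and 0.579 in the astrocyte libraries and was 0.780 in Ctx NPCs. Wider differences were seen for Col4a5 over Col4a6, from 1.41 in Ctx astrocytes to 3.45 in Ctx NPCs, and for Col6a1 over Col6a2, from 1.31 in Ctx NPCs and 1.57 in titled C to 3.79 in Ctx astrocytes. Col3a1 over Col1a1 was 0.218 in VM untransduced, 0.172 in titled NF and 0.192 in Ctx astrocytes, against 0.620 in titled C and 1.17 in Ctx NPCs.

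**Figure D3:**
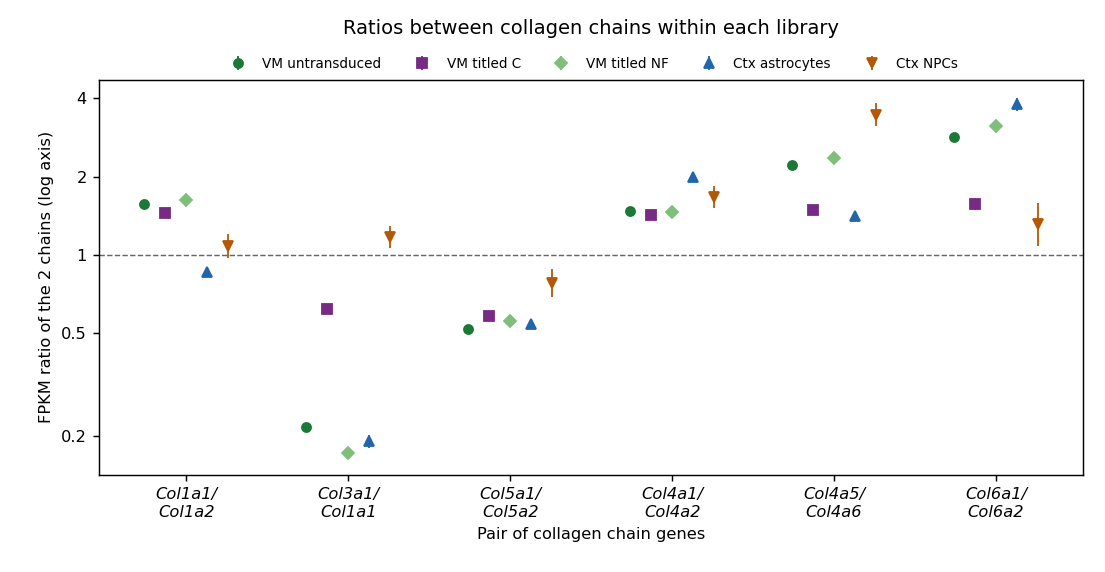
FPKM ratio of 2 collagen chains within each library (y axis, log scale; dashed line at 1) for 6 gene pairs on the x axis; bars are 95% exact counting intervals, some smaller than the symbol. Col4a1 over Col4a2 spans 1.42 to 2.00, and Col3a1 over Col1a1 is highest in titled C (0.620) and Ctx NPCs (1.17).

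Outside the fibrillar and type IV classes, type VI genes encode the chains of beaded microfibrils near cells. Col6a1 had 146, 44.1, 149, 78.0 and 3.34 FPKM, Col6a2 had 51.3, 28.1, 47.9, 20.6 and 2.55 FPKM, and Col6a3 had 4.21, 3.56, 5.51, 2.19 and 0.436 FPKM. In titled C the first chain was lower than in the other VM libraries by a wider margin than its partners. Col8a1, a network-forming chain of vessel walls and the cornea, had 115, 51.3, 144, 65.4 and 0.557 FPKM, a range of 259-fold, and Col8a2 had 3.21, 0.368, 3.54, 1.50 and 1.27 FPKM. Col7a1, the anchoring fibril chain of skin, had 4.58, 6.86, 5.24, 2.52 and 0.284 FPKM. Col18a1, the source of endostatin in basement membranes, had 91.0, 47.7, 104, 70.4 and 3.19 FPKM, and its relative Col15a1 had 0.876, 5.11, 0.853, 0.470 and 0.466 FPKM. Of the multiplexin pair, Col18a1 was thus lowest of the VM libraries in titled C, where Col15a1 was highest. Col23a1, the only transmembrane collagen above FPKM 1, had 16.4, 13.2, 16.3, 2.38 and 0.316 FPKM, higher in the midbrain libraries than in the cortical ones.

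The windows of Col6a1 (chr10:76725995-76726294, minus strand) and Col15a1 (chr4:47207762-47208061, plus strand) are shown because titled C was far below the other VM libraries for the first and far above them for the second.
Col6a1: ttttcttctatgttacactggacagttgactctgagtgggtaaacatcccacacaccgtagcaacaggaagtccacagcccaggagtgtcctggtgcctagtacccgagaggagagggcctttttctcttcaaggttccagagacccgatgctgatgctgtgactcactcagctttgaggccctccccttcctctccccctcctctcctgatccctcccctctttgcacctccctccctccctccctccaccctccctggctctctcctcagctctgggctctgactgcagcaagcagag
Col15a1: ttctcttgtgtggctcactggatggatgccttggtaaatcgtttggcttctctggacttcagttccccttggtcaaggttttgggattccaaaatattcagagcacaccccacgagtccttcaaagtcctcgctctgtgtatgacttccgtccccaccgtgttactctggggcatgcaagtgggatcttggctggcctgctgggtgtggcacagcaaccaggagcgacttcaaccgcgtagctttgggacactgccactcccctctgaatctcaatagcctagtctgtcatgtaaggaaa
Neither window holds any of the 3 motifs, which says only that these letters are not there. The annotated span of Col15a1 begins at 47207655, upstream of its window, so the stretch around that first base was not searched.

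FACIT genes took other orders. Col9a1, Col9a2 and Col9a3 encode type IX, which coats cartilage fibrils, and Col9a3 is the member that led in Ctx NPCs. Col9a1 had 0.167, 0.147, 0.138, 0.178 and 3.63 FPKM. Col9a2 had 1.34, 0.303, 1.27, 0.487 and 3.08 FPKM, and Col9a3 had 7.01, 4.19, 6.59, 4.78 and 39.3 FPKM. All 3 type IX genes were highest in Ctx NPCs. Per length, Col9a3 over Col9a1 was 41.9, 28.5, 47.9, 26.8 and 10.8, so that the ratio was smallest in Ctx NPCs (9.58 to 12.3). The ratios of the other libraries rest on 11 to 15 Col9a1 reads. The annotated span of Col9a3 overlaps that of Tcfl5, and use of strand in the counting is not given. Col16a1, a FACIT of skin and smooth muscle, had 11.7, 19.3, 10.2, 5.05 and 21.3 FPKM. Col22a1, a collagen of tissue junctions, had 4.53, 1.27, 4.45, 6.86 and 0.331 FPKM, and Col20a1 had 1.50, 0.724, 1.90, 1.36 and 1.63 FPKM.

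The question put to titled NF and titled C is what the 2 factors alter in VM astrocytes. A gene was called at a ratio of 2-fold or more between library-scaled counts, provided that either library had it above FPKM 1. With 1 library per condition no test was possible. In titled NF, 12 of the 27 members that passed the level filter were called higher than in titled C (44.4%, against 9.53% of all genes passing it) and 1 lower (3.7%, against 9.73%). The median log2 ratio of the 27 was 0.87 and that of all genes was -0.02. Fibrillar members called higher were Col11a1 at 1.81 (counting interval 1.69 to 1.94), Col2a1 at 1.43, Col1a1 at 1.16 (1.13 to 1.19) and Col1a2 at 1.01 (0.97 to 1.05). Col1a2 lay at the cutoff and was 0.98 with DESeq2's size factors. Of the 4 type IV genes that passed, Col4a5 was called at 1.38 (1.33 to 1.43), and Col4a1, Col4a2 and Col4a6 had ratios of 0.42, 0.39 and 0.71.

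The other 7 calls in the same direction came from 4 classes. Type VIII gave Col8a2 at 3.25 (2.76 to 3.80), which rests on 36 reads in titled C against 312 in titled NF, and Col8a1 at 1.49. Col6a1 was at 1.76 (1.71 to 1.81), with Col6a2 at 0.77 and Col6a3 at 0.63. FACIT calls were Col9a2 at 2.04 (1.33 to 2.88), Col20a1 at 1.38 and Col22a1, 3.48-fold higher. Col18a1 was at 1.13 (1.08 to 1.17). The call in the other direction was Col15a1, 5.97-fold lower in titled NF, at a log2 ratio of -2.58 (-2.91 to -2.27). Also below 0, without a call, were Col3a1 at -0.69, Col27a1 at -0.90, Col16a1 at -0.93 and Col7a1 at -0.39. Members that passed the filter by their level in 1 library alone had to be higher in that library, though not by 2-fold. With FPKM above 1 required in both, 9 were higher and 0 lower at 2-fold. The share of all genes called under this stricter filter was not worked out. Marker lists differed between these libraries as well, with 11 of 12 microglial, 6 of 7 oligodendrocyte and 4 of 5 oligodendrocyte progenitor markers called lower in titled NF, and 1 of 13 fibroblast and 2 of 7 mural markers called higher, with 0 and 1 lower. Their part was not tested.

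Titled C and VM untransduced, which share the libraries of the comparison above and below, differed in the opposite way. Titled C had 2 of 27 members called higher (7.41%, against 7.30% of all genes) and 10 lower (37.0%, against 8.48%), with a median of -0.87 against -0.01 for all genes. Lower were Col8a2 at -3.10 (-3.66 to -2.62), Col9a2 at -2.11, Col22a1 at -1.83, Col6a1 at -1.73 (-1.78 to -1.68), Col2a1 at -1.37, Col11a1 at -1.33, Col8a1 at -1.17, Col4a5 at -1.16, Col20a1 at -1.05 and Col1a1 at -1.03. The last 2 lay near the cutoff, and 8 members were called lower with DESeq2's size factors. Higher were Col15a1 at 2.54 (2.24 to 2.86) and Col27a1 at 1.13 (0.80 to 1.48), both of which passed the filter by their level in titled C alone, as Col8a2, Col9a2 and Col20a1 did by that in VM untransduced. With FPKM above 1 required in both libraries, 0 were higher and 7 lower, again without a share over all genes to compare. Col3a1 was at 0.48 and Col5a2 at -0.90, although these genes lie 24624 bases apart on chromosome 1. Microglial markers stood beside these values, with 11 of the 12 that passed called higher in titled C. Called higher were also 6 of 7 oligodendrocyte and 3 of 5 oligodendrocyte progenitor markers. Of 5 endothelial markers, 2 were called higher and 1 lower. The fibroblast list had 0 called higher and 2 lower of 13, and the mural list 1 higher and 2 lower of 7. Their part in the collagen ratios was not tested.

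Titled NF and VM untransduced gave the smallest collagen ratios. Of 25 members that passed, 0 were called higher (0.322% of all genes were) and 0 lower (0.668% of all genes). Ratios ran from -0.21 for Col3a1 and Col16a1 to 0.48 for Col11a1, with a median of 0.12, and all genes had a median of -0.05. The type IV genes lay between 0.12 and 0.28, Col1a1 was at 0.13 (0.11 to 0.15) and Col8a1 at 0.33 (0.29 to 0.36). Several of these intervals do not reach 0, but with 1 library each it is not known whether 2 cultures of the same kind differ as much. The share of reads on collagen genes was 1.10 times that of VM untransduced (1.10 to 1.11), whereas titled C lay 1.62-fold below VM untransduced (1.61 to 1.63). Cell type markers were not all alike in titled NF and VM untransduced. Called lower in titled NF were 3 of 5 oligodendrocyte and 1 of 11 microglial markers, and no marker was called higher. All 11 microglial ratios were below 0, with a median of -0.53. Their part was not tested.

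Regional origin was the question of Ctx astrocytes against VM untransduced. No collagen gene of the 26 that passed was called higher in Ctx astrocytes (4.49% of all genes were), and 8 were called lower (30.8%, against 9.89% of all genes). The collagen median was -0.84 and that of all genes -0.05. Lower in the cortical cells were Col23a1 at -2.78 (-2.97 to -2.61), Col2a1 at -2.54, Col3a1 at -2.01 (-2.10 to -1.93), Col1a1 at -1.83 (-1.87 to -1.79), Col9a2 at -1.44, Col6a2 at -1.32, Col16a1 at -1.22 and Col8a2 at -1.10. Type IV held no call, with Col4a2 at -0.92, Col4a1 at -0.48, Col4a5 at -0.17 and Col4a6 at 0.48. As a share of all counted reads, fibrillar genes were 2.13-fold higher in VM untransduced (2.10 to 2.15) and type IV genes 1.28-fold higher (1.26 to 1.29). The 3 members with ratios above 0 other than Col4a6 were Col11a1 at 0.79, Col11a2 at 0.66 and Col22a1 at 0.60. Of 13 fibroblast markers that passed, 10 were called lower in Ctx astrocytes too, with Dcn at -3.67 and Lum at -2.95. The fibroblast list also held 1 marker called higher, at 1.48. Called lower as well were 10 of 11 microglial, 4 of 5 endothelial and 3 of 7 mural markers, whereas 6 of 10 astrocyte markers were called higher and 0 lower. The part of such cells was not tested.

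Differences were widest between Ctx NPCs and Ctx astrocytes, 2 cortical cultures that also differ in stage. Of 28 members that passed, 17 were called lower in Ctx NPCs (60.7%, against 17.9% of all genes) and 6 higher (21.4%, against 20.1%). The median was -2.61 and that of all genes 0.19. Scaling by TMM, DESeq2's size factors or upper quartiles shifted all ratios of this comparison by -0.18, -0.18 and -0.17, and then 18 members were lower, with Col2a1 added, and 6 higher. All 4 type IV genes that passed and all 3 type VI genes were lower, from Col4a5 at -2.18 (-2.26 to -2.11) to Col6a1 at -4.54 (-4.73 to -4.37). Col8a1 had the lowest ratio, -6.86 (-7.28 to -6.50), on 57 reads in Ctx NPCs against 7167. Fibrillar calls were Col5a2 at -4.15, Col5a1 at -3.62, Col1a2 at -3.45, Col1a1 at -3.12 (-3.23 to -3.02) and Col5a3 at -2.06, whereas Col3a1 was at -0.51 and Col11a1 at -0.26. Single members of further classes were Col18a1 at -4.46, Col22a1 at -4.36, Col7a1 at -3.14 and Col23a1 at -2.89.

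The 6 genes called higher in Ctx NPCs were the 3 type IX genes, Col16a1, Col11a2 and Col27a1. Col9a1 was at 4.30 (3.60 to 5.20), on 285 reads against 15, Col9a3 at 3.04 (2.86 to 3.22) and Col9a2 at 2.64 (2.09 to 3.28). Col16a1 was at 2.07 (1.94 to 2.21), Col27a1 at 1.46 and Col11a2 at 1.45. With FPKM above 1 required in both libraries, 3 were higher and 12 lower. With VM untransduced as the reference, a choice added after the data were seen, 5 were higher and 20 lower. Neither setting has a share over all genes to set beside it, so how these counts compare with all genes is not known. Oligodendrocyte markers moved with this comparison as well, all 8 that passed being called higher in Ctx NPCs. Of 7 neuronal markers, 6 were called higher and 1 lower. Of 12 fibroblast markers, 9 were called lower and 1 higher, Lum, at 0.606 FPKM in Ctx astrocytes and 2.53 in Ctx NPCs. Called lower were also 9 of 9 microglial, 5 of 6 mural and 3 of 3 endothelial markers. Their part in the collagen ratios was not tested.

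**Figure D4:**
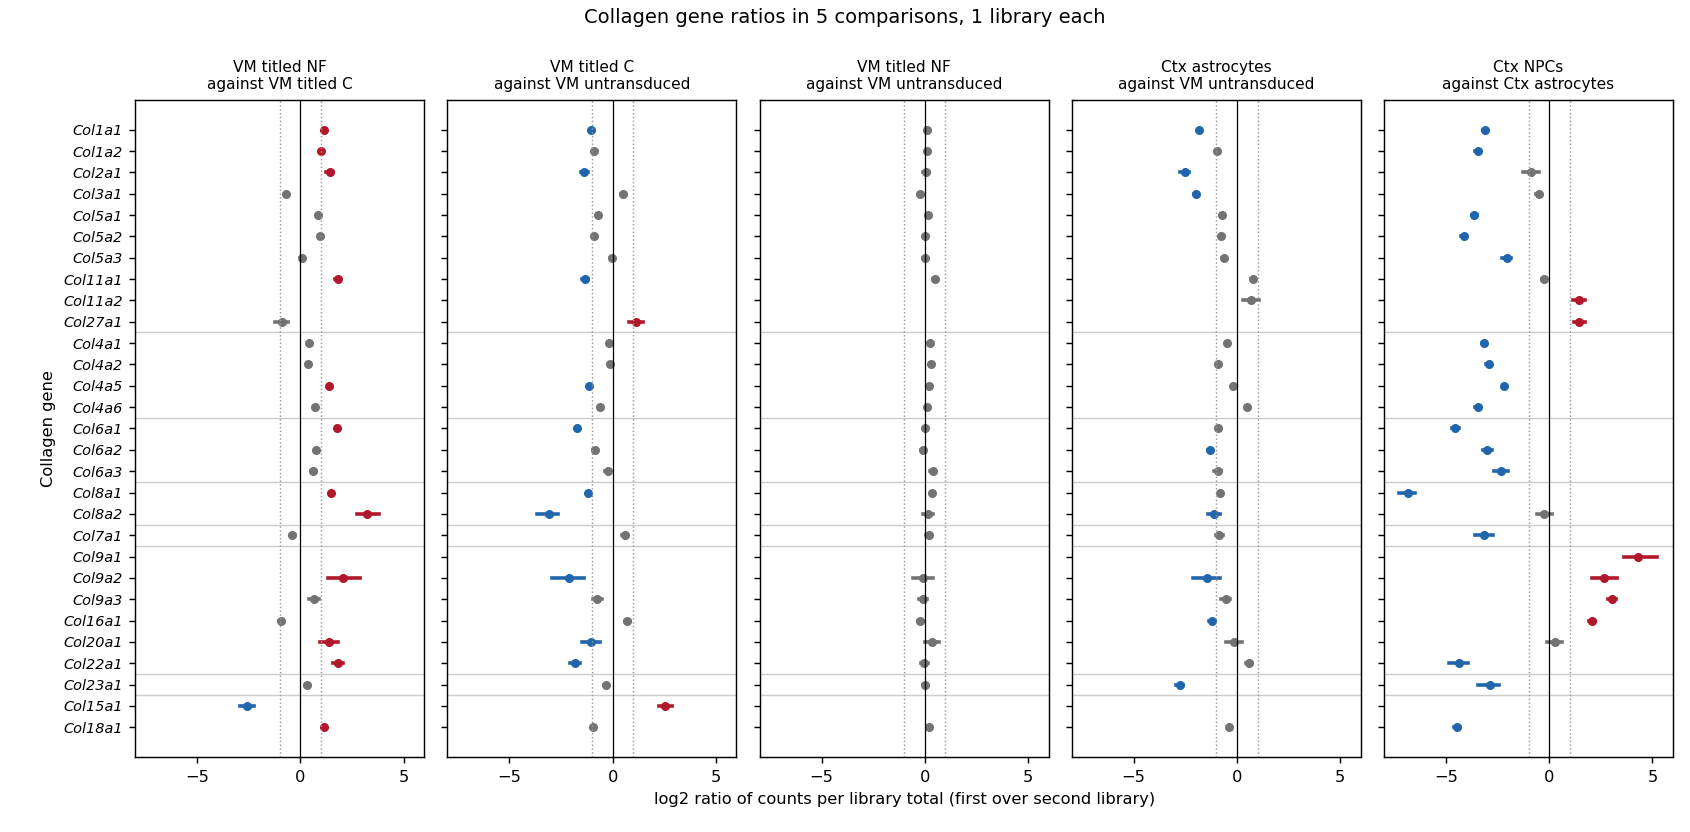
log2 ratio of counts per library total for each collagen gene that passed the level filter (x axis; first over second library; dotted lines at 2-fold), in 5 comparisons; bars are 95% exact counting intervals, red is called higher, blue lower and grey neither. The titled NF against VM untransduced panel holds 0 calls, and the Ctx NPC panel holds 6 higher and 17 lower.

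Collagen chains need a set of enzymes and chaperones for hydroxylation, folding, trimming and crosslinking, and cells read collagen through integrins, discoidin domain receptors and others. Of the 28 modification, processing and crosslinking genes that passed in titled NF against titled C, 0 were called higher (9.53% of all genes were) and 1 lower (3.57%, against 9.73%). In titled C against VM untransduced 1 was called higher (3.57%, against 7.30%) and 0 lower (8.48% of all genes were). Both calls were Adamts14, a procollagen peptidase named after its values were seen, with 6.90, 39.9, 6.68, 3.59 and 0.652 FPKM. Serpinh1, the collagen chaperone HSP47, had 428, 245, 404, 255 and 217 FPKM, so that it did not follow the collagen genes down in Ctx NPCs, where its log2 ratio to Ctx astrocytes was -0.23 (-0.27 to -0.19). P4hb, a prolyl hydroxylase subunit with other folding roles, had 269, 342, 248, 172 and 233 FPKM, and P4ha1, the catalytic partner, had 87.1, 78.9, 95.3, 113 and 20.2 FPKM. Pcolce, which enhances procollagen cleavage, had 61.8, 36.4, 57.0, 22.5 and 2.39 FPKM, and Adamts2, another peptidase, had 4.44, 3.74, 4.89, 4.22 and 0.363 FPKM.

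Crosslinking enzymes were lower in Ctx astrocytes than in VM untransduced for 4 of the 5 genes, all in the lysyl oxidase family, and for all 5 in Ctx NPCs against Ctx astrocytes. Lox itself had 80.2, 77.9, 111, 24.0 and 0.764 FPKM, with log2 ratios of -1.74 (-1.81 to -1.68) and -4.96 (-5.32 to -4.64) in these comparisons. The other calls in Ctx astrocytes, named after their values were seen, were Loxl1 at -1.42, Loxl2 at -1.57 and Loxl4 at -1.49. Over the 3 enzyme lists together, 6 of 27 genes were called lower (22.2%, against 9.89% of all genes) and 1 higher (3.7%, against 4.49%) in Ctx astrocytes. In Ctx NPCs 18 of 29 were called lower (62.1%, against 17.9%) and 1 higher (3.45%, against 20.1%).

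Of the receptors, Ddr1 had 166, 68.9, 158, 254 and 197 FPKM and was called lower in titled C than in VM untransduced at -1.27 (-1.31 to -1.22). Ddr2 had 14.0, 15.2, 17.3, 14.4 and 4.81 FPKM. Itga1, the collagen-binding integrin chain, had 8.69, 5.92, 12.2, 23.6 and 0.948 FPKM and was the receptor with the largest ratio above 0 in Ctx astrocytes against VM untransduced, 1.44 (1.34 to 1.54). Itga11 had 3.15, 5.23, 4.64, 2.61 and 0.0906 FPKM. Lair1, a collagen receptor of leukocytes, had 0.520, 3.06, 0.307, 0.159 and 1.33 FPKM. It was highest in titled C and next highest in Ctx NPCs. Cx3cr1, a microglial gene, had 0.375, 1.51, 0.183, 0.186 and 0.0266 FPKM, so that it was highest in titled C as well but lowest in Ctx NPCs.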

How the data were processed

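The authors deposited 5 tables of RNA-seq counts and FPKM, 1 for each library and condition, with no replicates. Reads had been trimmed (quality 20), screened for mismatches by Bowtie, aligned by STAR and counted by the authors on RefSeq Release 105 exons using HTSeq-count, so that the deposited counts are raw read counts per transcript. The deposited FPKM values scale these counts to transcript length and to the library total, and values recomputed from the counts differed, relative to them, by at most 4.09e-05. The study's methods name GRCm38/mm10, whereas the submitters' processing notes name another mouse build, so coordinates printed are those of RefSeq on GRCm38.p6. The notes also list bcl2fastq 1.8.4 and DESeq.

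Symbols were matched for 19997 of 20178 transcripts, and 1 row of totals was left out of each library. Counts were scaled to library totals with 0.5 reads added, and genes were called at a 2-fold ratio if either library exceeded FPKM 1. Ratios have exact (Clopper-Pearson) and shares Wilson 95% intervals. Alternatives were edgeR's TMM, DESeq2's size factors, upper quartiles, 5 or no reads added, other filters, and a 2.6-fold cutoff. The arithmetic was tested on simulated counts.

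Members and gene lists were chosen with earlier results of these data known. Named were members with FPKM > 1 in at least 1 library (ratios in full for those called in a comparison), the other members by count and range, 11 collagen enzymes and receptors, per comparison the enzyme or receptor with the largest rise and fall past the cutoffs, Nr4a2, Foxa2 and 10 cell type markers. Software was edgeR 4.0.16 and DESeq2 1.42.0 in R 4.3.3, and pandas 2.3.3 and scipy 1.17.1 in Python 3.11.15.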

Additional observations from a re-analysis of the deposited data

How the results depend on the processing

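No paired analysis was possible because each condition has 1 library and the labels give no replicate numbers. Of 102 recomputed counts of called members, 90 stayed within 1.5 times their value, as did 40 of 41 medians within their interval. None of 532 recomputed log2 ratios of single members changed sign where called (largest move 0.36). However, 80 of the 532 fell outside their main counting interval, in 45 of 133 gene and comparison pairs. In titled NF against titled C, 3 members were lower without a filter on low values and 0 with FPKM above 1 in both libraries, in place of 1. In titled C against VM untransduced, 0 were higher with FPKM above 1 in both libraries and 1 each at a 2.6-fold cutoff and with the whole counting interval past 2-fold, in place of 2, and 4 were lower at 2.6-fold in place of 10. Without a filter, titled NF against VM untransduced had 1 higher and 2 lower in place of 0, and Ctx astrocytes against VM untransduced had 3 higher in place of 0 and 15 lower in place of 8, with 5 lower at 2.6-fold. In Ctx NPCs against Ctx astrocytes, 3 were higher with FPKM above 1 in both libraries in place of 6, and the median, -2.61 in the main setting, was -0.88 without a filter on low values and -3.34 with VM untransduced as the reference, added after the data were seen. These settings differ by construction in which genes enter or where the cutoff lies. Shares over all genes were worked out for the main setting only, so the recomputed counts cannot be set against all genes. Leaving 100 non-member genes with the most reads out of the totals raised the collagen share to 0.939% in VM untransduced, 0.585% in titled C, 1.03% in titled NF, 0.549% in Ctx astrocytes and 0.0969% in Ctx NPCs. Depth limits the members under FPKM 1, and no spread between cultures can be given.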

Other observations

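Among collagen genes outside the 40 members, Col26a1, which was looked at after its values were seen, was highest in Ctx NPCs, as the type IX genes were, with 28 reads in VM untransduced, 9 in titled C, 29 in titled NF, 20 in Ctx astrocytes and 593 in Ctx NPCs (0.484, 0.147, 0.525, 0.343 and 10.9 FPKM). Col6a4, Col6a5 and Col6a6, later members of the type VI family, had at most 9, 23 and 10 reads in any library.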
